A study of Mus musculus with 20 samples.

Results

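The genes described here carry the names of nuclear-encoded subunits of the mitochondrial respiratory chain and of the ATP synthase. They were chosen by symbol, as every gene whose mouse name begins with Nduf followed by a, b, c, s or v and a digit, is one of Sdha to Sdhd, begins with Uqcr, begins with Cox and a digit from 4 to 8 followed by a, b or c, or begins with Atp5, without pseudogene names and with at least 10 counts in at least 4 of 20 libraries. Of 55359 gene identifiers in the files, 95 had such a symbol, 8 of these were pseudogene names and 10 did not reach the count minimum, which left 77 genes. By complex there were 37 genes of complex I, 4 of complex II, 8 of complex III, 11 of complex IV and 17 of complex V. All 77 had at least 10 counts in 20 of 20 libraries, so none entered only through a group in which it was high, and all 77 were tested. The 2 members nearest the minimum were Ndufa4l2, with a median of 24.5 counts, and Cox7a1, with a median of 29.5. Just outside it were Cox6b2, which reached 10 counts in 3 libraries with a maximum of 16, and Ndufs6b, which did so in 2 libraries with a maximum of 12. Symbols are those of an older annotation, so that Atp5a1, Atp5b, Atp5g1, Atp5g2 and Atp5g3 stand for Atp5f1a, Atp5f1b, Atp5mc1, Atp5mc2 and Atp5mc3.

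In the inner mitochondrial membrane, complex I (NADH dehydrogenase) and complex II (succinate dehydrogenase) pass electrons to coenzyme Q, complex III hands them to cytochrome c, and complex IV (cytochrome c oxidase) reduces oxygen. Complexes I, III and IV pump protons, and complex V lets them back through a rotating ring of subunit c to make ATP in its F1 head. Complex II is wholly nuclear-encoded, whereas the others also need subunits made from mitochondrial DNA, and hepatocytes, which oxidise much fatty acid, are rich in all of them.

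The study examined whether treadmill exercise affects liver tumours in a mouse model that combines neonatal application of the carcinogen 7,12-dimethylbenz(a)anthracene (DMBA) with a high-fat diet. Wild-type male mice, strain written C56BL/6 in the labels, were sampled at 35 weeks of age, and liver RNA was sequenced in 20 libraries, 4 in each of 5 groups. The shared treatment text describes 50 µL of 0.5% DMBA on the back at postnatal day 4 to 5 for mice that were then kept on either diet. Normal-diet livers (ND) came from non-exercised mice on a diet with 12% of calories from fat, and their labels do not name a tumour or non-tumour piece. The other 4 groups received a diet with 60% of calories from fat and consist of non-tumour (NT) and tumour (T) tissue of non-exercised mice (HFD_NonEx_NT, HFD_NonEx_T) and of exercised mice (HFD_Ex_NT, HFD_Ex_T). Exercised mice started on the treadmill at 20 weeks of age, were trained for 5 weeks, and then spent 10 weeks running 20 min a session at 18 m/min, with 5 sessions weekly. Tissue was taken no later than 2 h after a run. A tumour piece and a non-tumour piece of 1 arm carry the same mouse number and were read as pieces of 1 mouse. The p-values measure the spread between the libraries of these sampled mice. Pieces of 1 mouse entered as separate libraries, except where a mouse block is named.

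The libraries held 16471378 to 20271948 counts assigned to genes. The hepatocyte markers looked at, among them Alb, Apoa1 and Cps1, were present in every group and summed to 59553 to 227550 CPM (a gene's counts relative to library size), while 9 striated muscle genes summed to 0.542 to 1.34 CPM, with 2 to 6 of them at 0 throughout a group. The 77 genes together took 1.154 to 1.254% of counts in ND, 1.18 to 1.33% in HFD_NonEx_NT and 1.10 to 1.21% in HFD_Ex_NT, but 0.619 to 0.952% in HFD_NonEx_T and 0.670 to 0.939% in HFD_Ex_T. Levels below are CPM scaled for library composition by edgeR's TMM factors, and levels of different genes are compared only as CPM per kilobase of exon.

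Because the members moved together in most libraries, the stretch just upstream of their start sites was searched for binding motifs of factors known to act on respiratory genes. Promoter sequences of RefSeq (build GRCm38.p6, 250 bases before to 50 bases after each start) were found for 65 of the 77 genes. NRF1, nuclear respiratory factor 1, binds GCGCANGCG, and this motif was in the promoters of 20 of the 65 genes (30.8%) against 7.03% of all 27025 genes in the table, reading both strands. The ETS motif CCGGAAGT, bound by the GABP factor, was in 5 (7.69% against 4.31%), and the motif TCAAGGTCA of the oestrogen-related receptors (ERR) was in those of Atp5g3 and Sdhd (3.08% against 0.466%). The YY1 motif AAGATGGCG was in 7 (10.8% against 1.64%) and the NF-Y motif GCCAATC in 7 (10.8% against 7.83%). These shares are descriptions of the letters in the window, given without a test. The 3 promoters shown are the ones, among those holding an NRF1, ETS or ERR motif upstream of the start, whose genes had the smallest p in tumours of non-exercised mice. Each is the 120 bases before the start, on the minus strand of chr5:108434400-108434519, chr6:24527691-24527810 and chr13:73328483-73328602 of GRCm38.p6, with the NRF1 motif in capitals. The motif reads the same on both strands in Atp5k, so that its capitals run 1 base longer.
Atp5k: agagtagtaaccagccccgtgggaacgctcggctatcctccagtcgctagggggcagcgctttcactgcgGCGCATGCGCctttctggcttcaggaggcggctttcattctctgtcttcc
Ndufa5: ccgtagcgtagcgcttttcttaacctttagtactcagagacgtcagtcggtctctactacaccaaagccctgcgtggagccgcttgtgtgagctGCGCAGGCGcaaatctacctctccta
Ndufs6: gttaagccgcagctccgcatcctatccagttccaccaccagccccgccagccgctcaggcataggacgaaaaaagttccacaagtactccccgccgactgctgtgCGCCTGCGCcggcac

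The share of each complex in the summed level was compared between groups. In ND, complex I made up 34.1% ± 0.492 (SD, n = 4) of the summed CPM per kilobase, complex II 6.72% ± 0.260, complex III 15.6% ± 0.0862, complex IV 19.5% ± 0.369 and complex V 24.2% ± 0.511. In HFD_NonEx_T the corresponding shares were 34.3% ± 0.892, 6.46% ± 0.517, 15.6% ± 0.219, 19.7% ± 0.621 and 23.9% ± 0.679. From HFD_Ex_NT to HFD_Ex_T the mean share of complex I went from 34.2 to 35.0%, that of complex II from 6.86 to 6.20%, that of complex IV from 19.3 to 20.0% and that of complex V from 24.2 to 23.2%. The share of complex II had its lowest value in library 1 of HFD_Ex_T, at 5.15%, and in the other 3 libraries of that group it lay between 6.36 and 6.88%. Among single genes the highest levels per kilobase, averaged over groups, were those of Atp5a1 (284 CPM per kilobase), Cox6a1 (267), Atp5b (256), Cox6b1 (217) and Cox8a (207), that is, of the F1 head and of small subunits of complex IV. The lowest were Atp5l (0.672), Ndufa4l2 (1.38) and Cox7a1 (2.80).

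**Figure D1:**
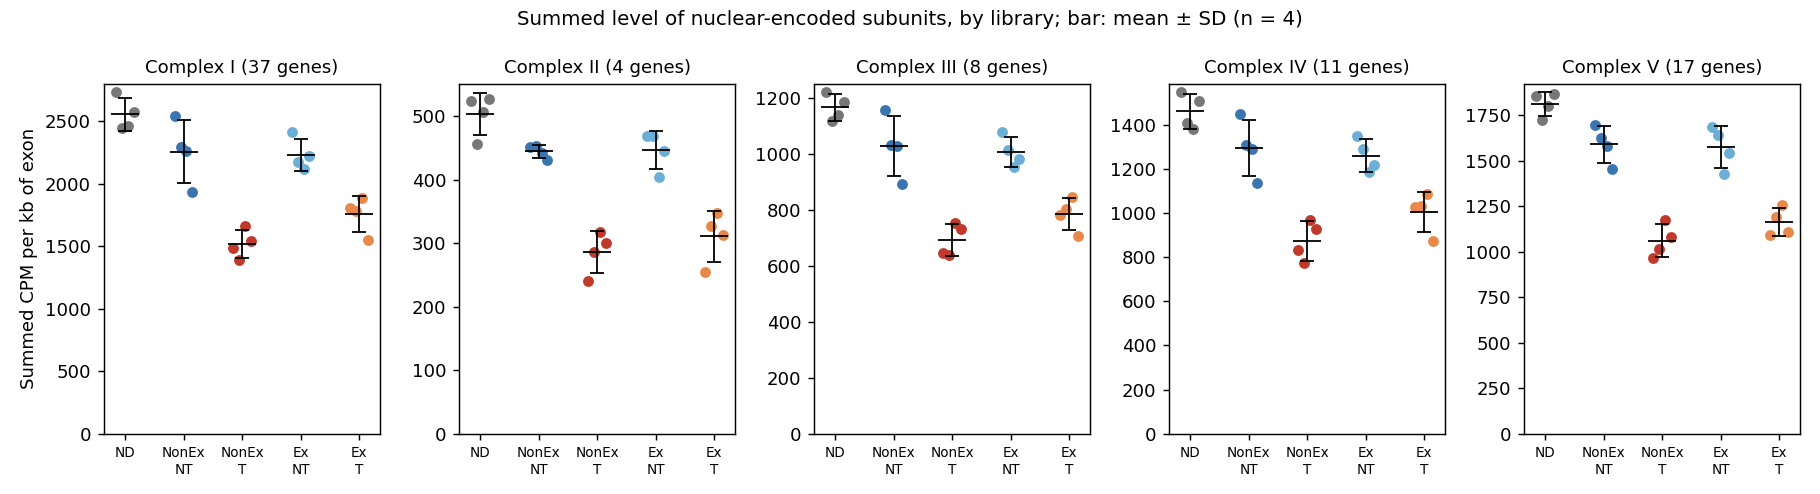
Summed TMM-scaled CPM per kilobase of exon of the nuclear-encoded subunits of each complex (vertical axis, from 0) in the 5 groups (horizontal axis). Points are libraries and bars are the mean ± SD of 4. In every complex the tumour libraries of each arm lie below all non-tumour libraries of that arm.

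Tumour tissue held less mRNA of nearly the whole set than the non-tumour tissue of the same arm. In non-exercised mice, 71 of 77 genes were lower and 0 higher at an adjusted p under 0.05 (edgeR's quasi-likelihood test, Benjamini-Hochberg over 14428 genes), where 17.8% of all genes tested were lower. In exercised mice, 59 were lower and 0 higher, where 16% of all genes tested were lower. With the mouse as a block, 70 and 49 genes were called. The median log2 fold change of the 77 genes was -0.57 in non-exercised mice, against -0.0058 over all genes tested, and -0.36 in exercised mice, against 0.0113. Of the genes called, 34 were at least 1.5-fold lower in non-exercised mice (9.34% of all genes tested) and 4 in exercised mice (7.51% of all genes tested). No gene of the set was 2-fold lower in either arm. Of all genes called, 50.3% were higher in tumours of non-exercised and 53.8% in those of exercised mice, and with total counts alone 37.7% in each.

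By complex, the genes lower in tumours of non-exercised mice were 36 of 37 of complex I, 4 of 4 of complex II, 8 of 8 of complex III, 9 of 11 of complex IV and 14 of 17 of complex V. In exercised mice they were 29, 4, 7, 8 and 11, and with the mouse as a block 25, 4, 3, 6 and 11. The 10 calls not kept there were those of Ndufa8, Ndufa12, Ndufb4, Ndufs4, Uqcr10, Uqcr11, Uqcrb, Uqcrq, Cox6b1 and Cox6c. All 59 genes called in exercised mice were also called in non-exercised mice, 12 were called in non-exercised mice alone and 6 in neither arm. The 12 were Ndufa1, Ndufa2, Ndufa6, Ndufa7, Ndufa13, Ndufc1 and Ndufv3 of complex I, Uqcrh of complex III, Cox6a1 of complex IV, and Atp5e, Atp5mpl and Atp5o of complex V. The difference between the arms was itself tested as an interaction and was called for 0 of 77 genes, as set out with the exercise results. The CPM ranges of tumour and non-tumour libraries did not overlap, with tumours lower, for 67 of 77 genes in non-exercised mice (18.2% of all genes tested) and for 56 in exercised mice (13.9%).

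**Figure D2:**
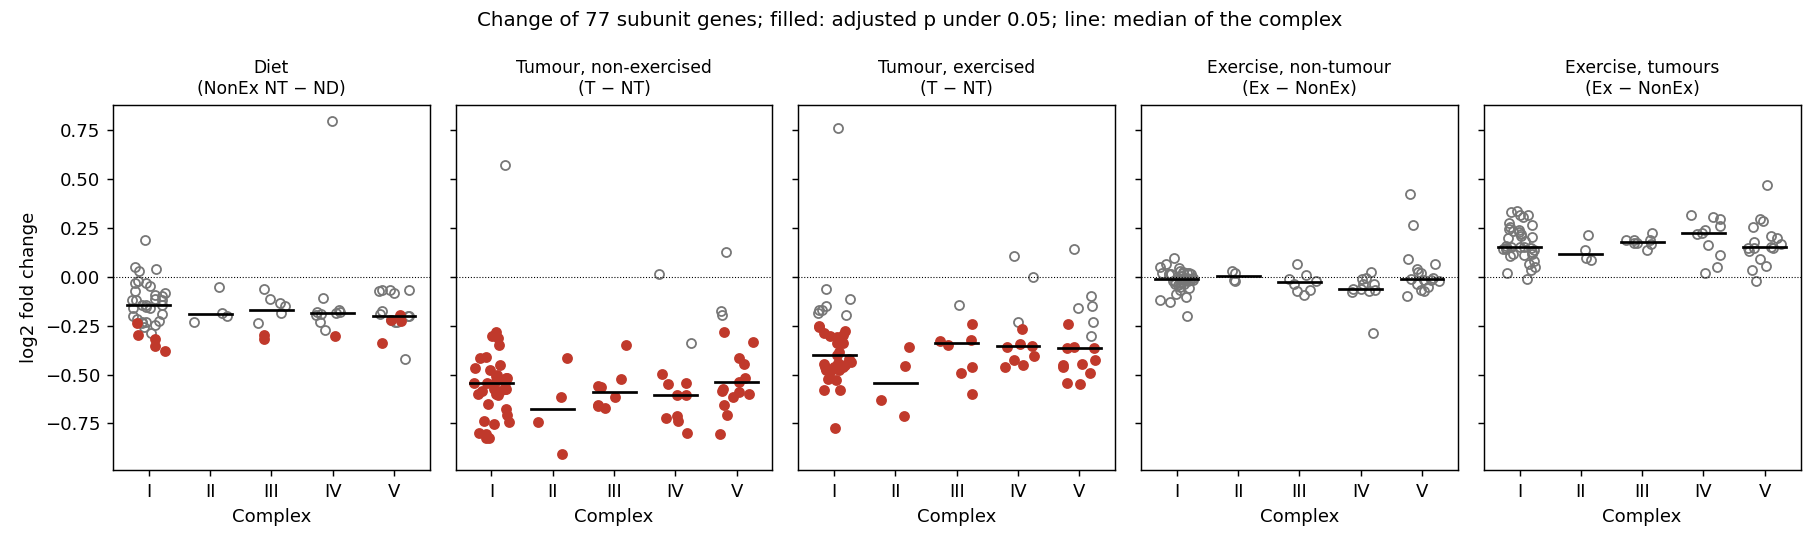
Fitted log2 fold change (vertical axis) of each of the 77 genes by complex (horizontal axis) in 5 comparisons. Filled points had an adjusted p under 0.05 and black lines are the medians of a complex. Filled points lie below 0 in the tumour panels and none is filled in the exercise panels.

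Summed over a complex, the change in tumours of non-exercised mice was close to uniform, from -32.5% for complex IV to -35.6% for complex II, with -32.7% for complexes I and III and -33.4% for complex V. In exercised mice it was -21.2% for complex I, -30.4% for complex II, -22.1% for complex III, -20.3% for complex IV and -26.2% for complex V. In neither arm did tumour and non-tumour libraries overlap in any complex. The sum over all 77 genes was 4168, 4095, 4873 and 4585 CPM per kilobase in the 4 tumours of non-exercised mice and 7293, 6706, 6602 and 5852 in their non-tumour tissue. In exercised mice it was 4963, 5135, 5416 and 4555 in tumours and 6996, 6588, 6083 and 6403 in non-tumour tissue. The gap between the lowest non-tumour and the highest tumour library was narrower in exercised mice.

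Other features of the libraries moved with this result. Alb, which encodes albumin, took 9.05 to 15.9% of counts in tumours and 4.06 to 7.36% in all other libraries, and with Alb left out of the total the 77 genes still took 0.736 to 1.05% in tumours and 1.17 to 1.38% in the others, without overlap. Of 10 hepatocyte markers, 5 were lower and 2 higher (Alb and Apoa1) in tumours of non-exercised mice, and 4 were lower and 2 higher in exercised mice. Of all genes tested, 17.8% were lower and 18% higher in the former, and 16% and 18.6% in the latter. The median log2 fold change of the 10 hepatocyte markers was -0.53 in non-exercised mice, with 7 negative and 3 positive. In exercised mice it was -0.50, with 8 negative and 2 positive. Their summed level, in which Alb weighs heavily, had a group median of 67917 CPM in HFD_NonEx_NT and 153920 in HFD_NonEx_T, and of 88412 and 176320 in the exercised arm. The 5 cholangiocyte markers summed to 45.3 to 179 CPM in HFD_NonEx_NT and 371 to 1468 in HFD_NonEx_T, and to 41.9 to 120 CPM in HFD_Ex_NT and 103 to 1450 in HFD_Ex_T. These markers did not move as one. In tumours of non-exercised mice 2 were higher and 1 lower, with a median log2 fold change of -0.32. In exercised mice 2 were higher and 0 lower, with a median of 0.27. Macrophage markers summed to 101 to 369 CPM in HFD_NonEx_T and 233 to 307 in HFD_NonEx_NT, endothelial markers to 179 to 299 and 141 to 237, stellate and fibroblast markers to 243 to 702 and 308 to 577, and lymphocyte markers to 4.21 to 13.99 and 4.17 to 13.4. Erythroid markers summed to 132 to 254 CPM and 145 to 394 in the same groups, and adipocyte markers, of which 2 were at 0, to 154 to 2014 and 3122 to 4929. Only 1 of the 6 adipocyte markers passed the filter on low counts, so the adipocyte sums rest almost wholly on 1 gene. The part of these shifts in the lower subunit levels was not tested. In bulk tissue, fewer cells of a type and less RNA per cell cannot be told apart.

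Complex I has a core that carries the flavin and the iron-sulphur clusters and a shell of accessory subunits. All 7 core genes were lower in tumours of both arms, with a median log2 fold change of -0.54 in non-exercised and -0.45 in exercised mice. Of 30 accessory genes, 29 were lower in non-exercised mice and 22 in exercised mice, with medians of -0.56 and -0.34. Ndufv1 (GRCm39 chr19:4057384-4062806), which encodes the flavin-binding subunit that takes electrons from NADH, was at 85.0, 85.4, 115 and 90.6 CPM in tumours of non-exercised mice and at 170, 173, 162 and 150 in their non-tumour tissue. In exercised mice it was at 89.8, 80.5, 120 and 95.4 CPM in tumours and at 177, 172, 146 and 166 in non-tumour tissue. No tumour library reached any non-tumour library, and Ndufv1 had the lowest log2 fold change of the set in exercised mice, -0.78 ± 0.12 (SE, adjusted p = 0.000223), against -0.80 ± 0.12 (adjusted p = 0.000141) in non-exercised mice.

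Ndufa9, an accessory subunit beside the coenzyme Q site, had the smallest p of complex I in non-exercised mice. It was at 82.6, 82.1, 88.3 and 84.3 CPM in tumours and at 135, 137, 125 and 114 in non-tumour tissue, a log2 fold change of -0.60 ± 0.076 (adjusted p = 6.98e-05). The 4 tumours lay close together and well below the lowest non-tumour library. The lowest fold changes of complex I in non-exercised mice were those of the accessory subunits Ndufa5 (-0.82 ± 0.12, adjusted p = 0.000130), Ndufb9 (-0.82 ± 0.12, adjusted p = 0.000130) and Ndufa3 (-0.80 ± 0.13, adjusted p = 0.000217). Ndufs1, the large iron-sulphur subunit, changed by -0.54 ± 0.11 and -0.48 ± 0.11 in the 2 arms (adjusted p = 0.00106 and 0.00291).

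Ndufa4 had the highest level per kilobase among the Nduf genes (181 CPM per kilobase) and is counted here by its name, although its protein is now placed in complex IV. It was at 145, 154, 200 and 173 CPM in tumours of non-exercised mice and at 316, 269, 292 and 243 in non-tumour tissue, and fell (-0.73 ± 0.11, adjusted p = 0.000180). Its paralogue Ndufa4l2 (GRCm39 chr10:127350836-127353023), known as a gene induced by low oxygen, was the one gene counted by name in complex I that was not called in either arm. It was at 2.75, 1.90, 1.72 and 1.499 CPM in tumours of non-exercised mice and at 1.12, 0.910, 1.44 and 1.79 in non-tumour tissue. The groups overlapped, at a log2 fold change of 0.57 ± 0.36 (adjusted p = 0.222). In exercised mice tumours 1 and 2 were at 2.54 and 3.14 CPM and tumours 3 and 4 at 1.15 and 1.001, with 0.812 to 1.67 CPM in non-tumour tissue (0.76 ± 0.36, adjusted p = 0.111). Tumours 3 and 4 lay within the non-tumour range.

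All 4 genes of complex II were lower in tumours of both arms. Its catalytic head oxidises succinate in Sdha and leads the electrons through the iron-sulphur clusters of Sdhb to the membrane anchors Sdhc and Sdhd. Sdhb (GRCm39 chr4:140688514-140706504) was at 93.8, 94.3, 120 and 111 CPM in tumours of non-exercised mice and at 211, 217, 181 and 176 in non-tumour tissue. With exercise the levels were 111, 121, 132 and 124 CPM in tumours and 222, 191, 181 and 204 in non-tumour tissue. Every tumour library lay below every non-tumour library, and the log2 fold change of -0.90 ± 0.11 (adjusted p = 4.90e-05), a 1.87-fold lower level, was the lowest of all 77 genes in non-exercised mice. The value in exercised mice was -0.71 ± 0.11 (adjusted p = 0.000172).

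Sdha was at 284, 372, 430 and 364 CPM in tumours of non-exercised mice and at 582, 621, 613 and 604 in non-tumour tissue (-0.74 ± 0.13, adjusted p = 0.000440). The exercised arm had 291, 400, 450 and 408 CPM in tumours and 601, 656, 538 and 603 in non-tumour tissue (-0.63 ± 0.13, adjusted p = 0.00171). Tumour 1 was the lowest tumour in each arm. The anchors had smaller fitted changes than Sdha and Sdhb, although the difference between genes was not tested. Sdhc changed by -0.61 ± 0.089 and -0.45 ± 0.089 (adjusted p = 0.000127 and 0.00113), and Sdhd by -0.41 ± 0.10 and -0.36 ± 0.10 (adjusted p = 0.00482 and 0.0124).

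In complex III 8 of 8 genes were lower in tumours of non-exercised and 7 of 8 in those of exercised mice, the latter 3 of 8 with the mouse as a block. Uqcrfs1 (GRCm39 chr13:30724291-30729345), the Rieske iron-sulphur protein and the one nuclear-encoded gene here that carries a redox centre of the complex, was at 120, 135, 157 and 144 CPM in tumours of non-exercised mice and at 240, 225, 218 and 200 in non-tumour tissue. In exercised mice it was at 138, 142, 180 and 150 CPM in tumours and at 252, 230, 219 and 223 in non-tumour tissue. The groups did not overlap in either arm, with log2 fold changes of -0.67 ± 0.098 (adjusted p = 0.000130) and -0.60 ± 0.098 (adjusted p = 0.000348). Cyc1, cytochrome c1, also carries one but lies outside the symbol rule. It fell as well, by 0.76 and 0.52 on the log2 scale (adjusted p = 0.000182 and 0.00292).

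The core proteins Uqcrc1 and Uqcrc2 had the smallest p of complex III in non-exercised mice, -0.65 ± 0.092 and -0.66 ± 0.097 (adjusted p = 0.000105 and 0.000130). Uqcr11, a small subunit with the highest level per kilobase of the complex (148 CPM per kilobase), changed by -0.57 ± 0.11 in non-exercised mice (adjusted p = 0.000687) and by -0.33 ± 0.11 in exercised mice (adjusted p = 0.0238). With the mouse as a block the latter adjusted p was 0.0665. Uqcrh, the hinge protein that contacts cytochrome c1, was at 113, 93.8, 112 and 113 CPM in tumours of non-exercised mice and at 148, 136, 141 and 123 in non-tumour tissue, and fell (-0.35 ± 0.090, adjusted p = 0.00608). In exercised mice its tumours, at 132, 128, 121 and 104 CPM, overlapped the non-tumour range of 126 to 146 (-0.14 ± 0.090, adjusted p = 0.237).

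Complex IV holds its redox centres in mitochondrially encoded subunits, and the nuclear-encoded ones surround and regulate them. In tumours 9 of 11 genes were lower in non-exercised mice and 8 in exercised mice. Cox5b (GRCm39 chr1:36730530-36732762), a zinc-binding subunit on the matrix side, was at 50.3, 55.2, 67.7 and 60.6 CPM in tumours of non-exercised mice and at 119, 107, 99.5 and 81.6 in non-tumour tissue. In exercised mice it was at 69.1, 72.3, 81.1 and 67.1 CPM in tumours and at 105, 98.3, 89.7 and 96.1 in non-tumour tissue. The groups did not overlap, at -0.80 ± 0.11 (adjusted p = 9.13e-05) and -0.42 ± 0.11 (adjusted p = 0.00597).

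Cox5a, which pairs with Cox5b in matrix regulation of the enzyme, was at 87.6, 87.9, 117 and 101 CPM in tumours of non-exercised mice and at 172, 158, 167 and 147 in non-tumour tissue (-0.71 ± 0.098, adjusted p = 9.95e-05). With exercise the levels were 99.6, 118, 127 and 116 CPM in tumours and 173, 153, 156 and 147 in non-tumour tissue (-0.45 ± 0.098, adjusted p = 0.00231). Every tumour lay below every non-tumour library of its arm. Cox4i1, the largest nuclear-encoded subunit, lies outside the symbol rule and changed by -0.68 ± 0.10 and -0.41 ± 0.10 (adjusted p = 0.000148 and 0.00569).

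Several subunits of complex IV come as tissue isoforms, of which the muscle, heart or testis forms were at or near 0 here. Cox6a1, the liver form of subunit VIa, was at 138, 121, 153 and 155 CPM in tumours of non-exercised mice and at 222, 207, 198 and 174 in non-tumour tissue (-0.50 ± 0.10, adjusted p = 0.00147). The exercised arm had 180, 178, 181 and 141 CPM in tumours and 215, 198, 195 and 189 in non-tumour tissue, without overlap (-0.23 ± 0.10, adjusted p = 0.0927). The muscle form Cox6a2 had at most 7 counts in a library. Cox6b1 fell in both arms (-0.55 ± 0.093 and -0.27 ± 0.093, adjusted p = 0.000334 and 0.0336, the latter 0.0638 with the mouse as a block), as did Cox8a (-0.54 ± 0.10 and -0.46 ± 0.10, adjusted p = 0.000865 and 0.00313). Their counterparts Cox6b2 and Cox8b had at most 16 and 3 counts, and Cox7b2 and Cox8c were listed at 0 in every library.

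Among the subunit VIIa genes, 1 of 3 was called. Cox7a2, the form found in most tissues, fell by 0.60 on the log2 scale in non-exercised mice (adjusted p = 0.000275). Cox7a1, the heart and muscle form, was at 1.12, 1.85, 1.35 and 1.60 CPM in tumours of non-exercised mice and at 1.91, 1.87, 1.64 and 2.08 in non-tumour tissue, with overlap (-0.34 ± 0.32, adjusted p = 0.442). Cox7a2l was at 45.6, 38.5, 40.6 and 40.1 CPM in tumours of non-exercised mice and at 41.6, 39.1, 45.1 and 37.0 in non-tumour tissue (0.0165 ± 0.086, adjusted p = 0.902). In exercised mice it was at 49.8, 44.4, 42.6 and 41.5 CPM in tumours and at 46.5, 39.3, 36.1 and 43.9 in non-tumour tissue (0.11 ± 0.086, adjusted p = 0.362). Cox7a2l thus showed overlapping groups in both arms, and its sign turned to -0.0982 and -0.03 when libraries were scaled by total counts alone.

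**Figure D3:**
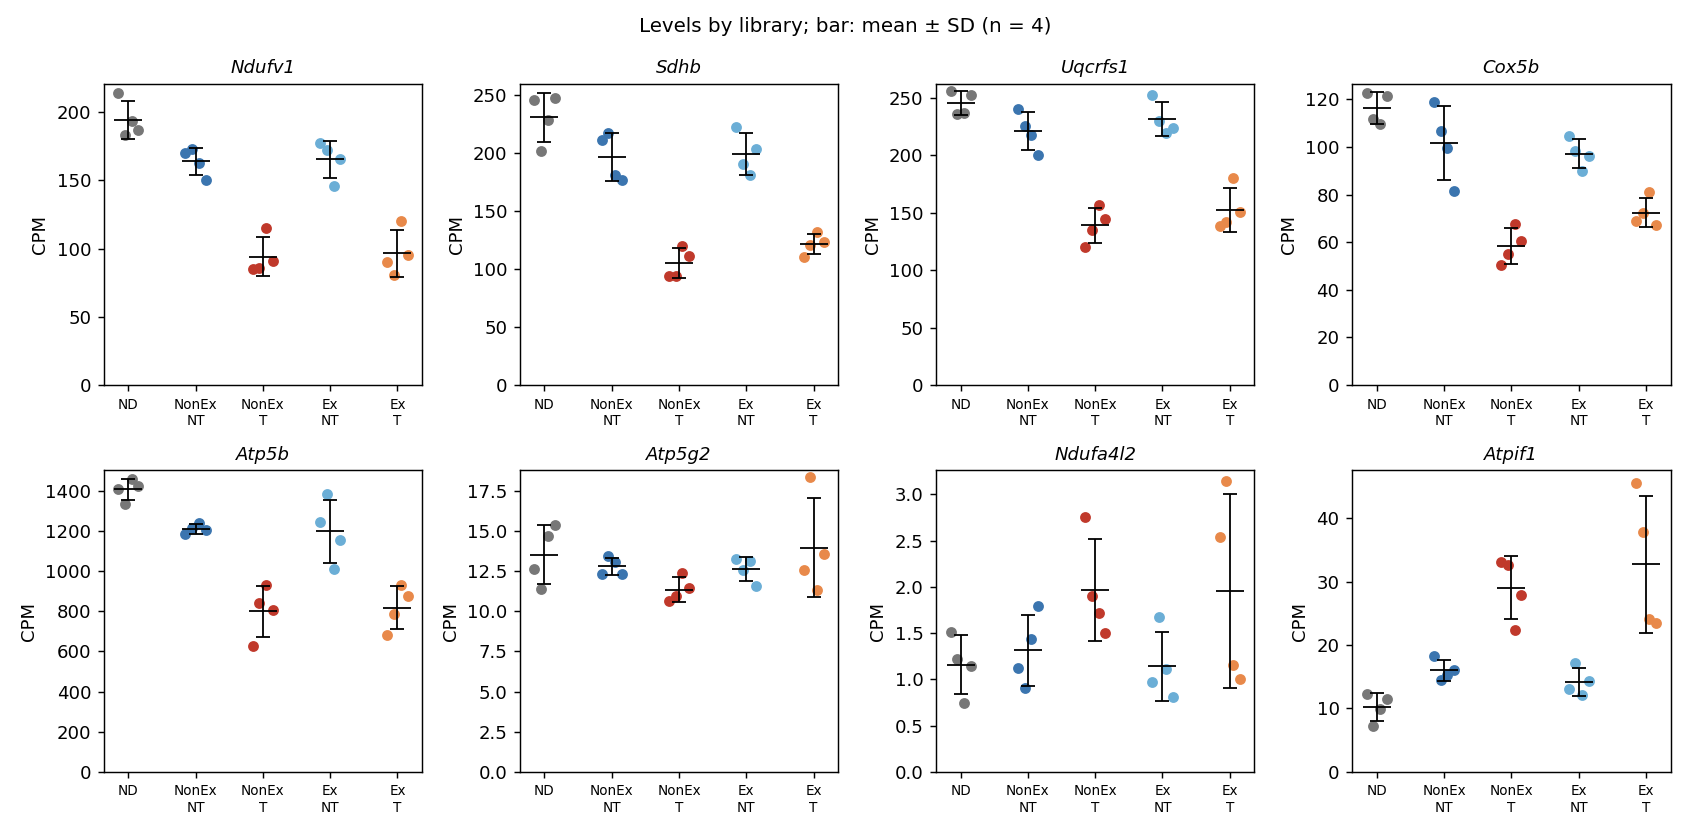
TMM-scaled CPM (vertical axes, from 0) of 7 subunit genes and of the inhibitor gene Atpif1 in the 5 groups (horizontal axes). Points are libraries and bars the mean ± SD of 4. Tumour libraries lie below non-tumour libraries of their arm for Ndufv1, Sdhb, Uqcrfs1, Cox5b and Atp5b, overlap them for Atp5g2 and Ndufa4l2, and lie above them for Atpif1.

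Of complex V, 14 of 17 genes were lower in tumours of non-exercised mice and 11 of 17 in exercised mice. In the F1 head, which makes ATP, 5 of 5 genes were lower in non-exercised and 4 of 5 in exercised mice. Atp5b, the catalytic beta subunit, was at 625, 841, 929 and 804 CPM in tumours of non-exercised mice and at 1183, 1215, 1238 and 1202 in non-tumour tissue. In exercised mice it was at 681, 785, 931 and 877 CPM in tumours and at 1246, 1384, 1010 and 1154 in non-tumour tissue. The groups did not overlap (-0.60 ± 0.13 and -0.55 ± 0.13, adjusted p = 0.00165 and 0.00335), and tumour 1 was the lowest tumour in each arm.

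Atp5a1, the alpha subunit, was at 573, 649, 737 and 648 CPM in tumours of non-exercised mice and at 1016, 998, 990 and 986 in non-tumour tissue (-0.61 ± 0.11, adjusted p = 0.000487), and changed by -0.54 ± 0.11 in exercised mice (adjusted p = 0.00150). Atp5d, the delta subunit of the central stalk, was at 120, 122, 141 and 140 CPM in tumours of non-exercised mice and at 205, 192, 188 and 173 in non-tumour tissue (-0.54 ± 0.078, adjusted p = 0.000130), and changed by -0.42 ± 0.078 in exercised mice (adjusted p = 0.000755). Non-tumour and tumour ranges were apart for both genes in both arms. Atp5e, the epsilon subunit, was the F1 gene not called in exercised mice (-0.30 ± 0.12, adjusted p = 0.0509).

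The stator, which holds the head still, was lower for 4 of 4 genes in non-exercised and 3 of 4 in exercised mice, the exception being Atp5o (-0.23 ± 0.096, adjusted p = 0.0659). Of 4 small membrane subunits, 3 were lower in non-exercised and 2 in exercised mice. Atp5k (GRCm39 chr5:108581110-108582314), the subunit e that helps ATP synthase dimers form and whose NRF1-bearing promoter is printed above, was at 42.4, 36.0, 50.8 and 46.1 CPM in tumours of non-exercised mice and at 87.8, 80.0, 72.5 and 65.6 in non-tumour tissue. With exercise the levels were 52.8, 55.8, 58.6 and 46.6 CPM in tumours and 82.9, 69.9, 63.0 and 75.2 in non-tumour tissue. It fell without overlap in both arms (-0.80 ± 0.12 and -0.45 ± 0.12, adjusted p = 0.000127 and 0.00685). The remaining small subunit, Atp5l, was not called (-0.19 ± 0.22 and -0.15 ± 0.21, adjusted p = 0.515 and 0.627), and 68.5% of its transcript sequence, in runs of 50 bases, also occurs in transcripts of other genes. In the whole set 17 genes shared more than 10% in this way. Among them Uqcrb (43.2%), Atp5h (36.9%), Ndufs3 (35.8%) and Cox5b (21.8%) were called lower in tumours of non-exercised mice. Exons of Ndufb9 and Atp5o also overlapped another gene on the same strand by more than 10%.

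Subunit c, which forms the rotating ring, is made from 3 genes that encode the same mature protein with different targeting sequences. Of the 3, 2 were lower in tumours of each arm. Atp5g3, with the highest level per kilobase of the 3 (173 CPM per kilobase), was at 269, 262, 296 and 283 CPM in tumours of non-exercised mice and at 441, 415, 420 and 372 in non-tumour tissue (-0.57 ± 0.088, adjusted p = 0.000175), and changed by -0.36 ± 0.088 in exercised mice (adjusted p = 0.00472). Atp5g1 was at 54.4, 47.2, 49.8 and 52.6 CPM in tumours of non-exercised mice and at 67.4, 66.2, 58.9 and 55.4 in non-tumour tissue (-0.28 ± 0.070, adjusted p = 0.00475), and changed by -0.24 ± 0.070 in exercised mice (adjusted p = 0.0132).

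Atp5g2 was at 10.6, 10.9, 12.4 and 11.5 CPM in tumours of non-exercised mice and at 12.3, 13.4, 13.1 and 12.3 in non-tumour tissue (-0.17 ± 0.13, adjusted p = 0.299). In exercised mice its tumours were at 12.6, 18.4, 11.3 and 13.5 CPM and its non-tumour tissue at 13.2, 12.6, 13.1 and 11.6 (0.14 ± 0.13, adjusted p = 0.397), and without tumour 2 the log2 fold change was -0.025. The groups overlapped in both arms. In runs of 50 bases, 38.4% of the transcript sequence of Atp5g2 is shared with other genes, so reads that lie wholly within those stretches may not be told apart between genes. How such reads were assigned was not examined. Atp5s, which is now named Dmac2l, was counted in complex V by its symbol and was placed in none of the parts of the enzyme. It was the third gene counted there that was called in neither arm, at 5.03 to 7.19 CPM in tumours and 4.82 to 5.86 in non-tumour tissue of non-exercised mice (0.13 ± 0.13, adjusted p = 0.492).

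Atpif1, whose product blocks the hydrolysis of ATP by the synthase and whose name lies outside the symbol rule, moved the opposite way. It was at 33.1, 32.7, 22.4 and 27.9 CPM in tumours of non-exercised mice, at 18.3, 14.5, 15.2 and 16.1 in their non-tumour tissue, and at 12.3, 7.21, 9.97 and 11.4 in ND. The exercised arm had 45.6, 37.7, 24.03 and 23.4 CPM in tumours and 13.1, 17.2, 12.2 and 14.3 in non-tumour tissue. No tumour overlapped its non-tumour tissue and no HFD_NonEx_NT library overlapped ND. Atpif1 rose in tumours of non-exercised (0.86 ± 0.20, adjusted p = 0.00357) and exercised mice (1.203 ± 0.21, adjusted p = 0.000476) and with the high-fat diet (0.65 ± 0.21, adjusted p = 0.0302).

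**Figure D4:**
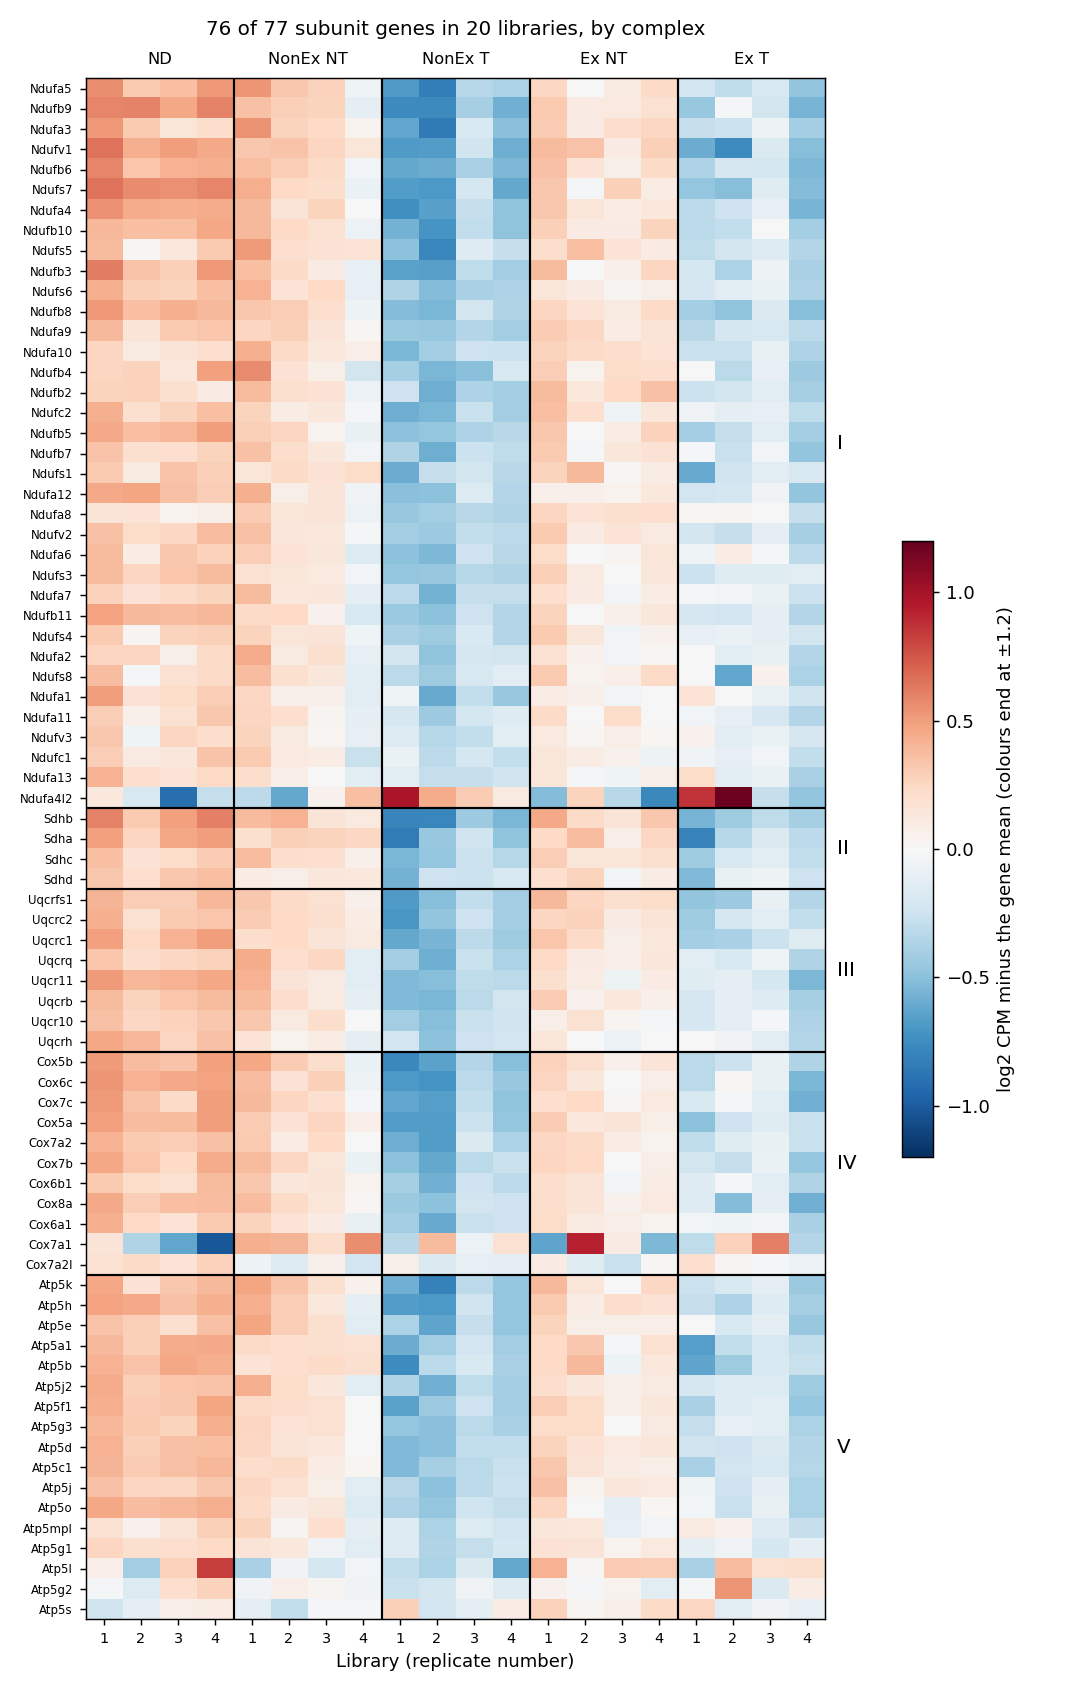
Each gene's log2 CPM minus its mean over the 20 libraries (colour) for 76 of the 77 genes (rows, by complex I to V, sorted by the tumour change in non-exercised mice) in the 20 libraries (columns, by group and replicate number). Most rows are low in both tumour groups, and Ndufa4l2, Cox7a1, Cox7a2l, Atp5l, Atp5g2 and Atp5s are the rows that do not follow.

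Genes that build, feed or regulate the complexes were looked at as lists. Of all genes tested, 17.8% were lower and 18% higher in tumours of non-exercised mice. In exercised mice the shares were 16% and 18.6%. Complex I assembly factors were lower in tumours for 11 of 15 genes in non-exercised and 9 of 15 in exercised mice, with Ndufaf1 at -0.63 and -0.61. For assembly of complexes II and III the counts were 6 and 5 of 10, for complex IV 10 and 7 of 21, and for the ATP synthase 3 and 4 of 5. Fmc1, which assembles the F1 head, changed more than any gene of the head itself, by -1.08 ± 0.16 and -0.87 ± 0.16 (adjusted p = 0.000130 and 0.000672). The copper chaperone Sco2, which complex IV needs, fell by 1.12 on the log2 scale in non-exercised mice (adjusted p = 0.000152).

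Of 17 electron carrier and coenzyme Q genes, 12 and 11 were lower and 1 higher in each arm. The higher one was Coq8b, with log2 fold changes of 1.59 ± 0.27 and 1.63 ± 0.27 (adjusted p = 0.000339 and 0.000389). Coq8b stood at 10.6 to 13.2 CPM in non-tumour tissue and 19.3 to 44.3 in tumours of non-exercised mice. Tricarboxylic acid cycle genes were lower for 12 and 11 of 13, mitochondrial ribosome genes for 31 and 21 of 41, and genes of mitophagy and membrane shape for 11 and 9 of 14, with 2 and 1 higher. Carriers, porins and import genes were lower for 5 and 6 of 18, with 0 and 1 higher, where 17.8% and 16% of all genes tested were lower. The median log2 fold change in non-exercised mice was -0.53 for the cycle, -0.28 for the ribosome and -0.13 for carriers, porins and import, against -0.57 for the 77 subunit genes. Of 13 mitochondrially encoded subunits 7 passed the filter on low counts, and 6 of 7 and 4 of 7 were lower in tumours, with medians of -0.60 and -0.50.

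Of 19 regulators of respiratory genes tested, 3 were lower and 1 higher in tumours of each arm, beside 17.8% and 16% of all genes tested that were lower. The nuclear receptor Esrrg was at 0.169, 0.770, 2.65 and 2.58 CPM in tumours of non-exercised mice and at 5.38, 6.37, 4.12 and 4.50 in non-tumour tissue, with tumours all below (-1.70 ± 0.52, adjusted p = 0.0162). In exercised mice the change was -1.97 ± 0.52 (adjusted p = 0.00828). With the mouse as a block the Esrrg values were 0.0592 and 0.0521. Its relative Esrra fell in both arms (-0.43 ± 0.12 and -0.55 ± 0.12, adjusted p = 0.0104 and 0.00274), and the coactivator Pprc1 rose (0.67 ± 0.16 and 0.44 ± 0.16, adjusted p = 0.00381 and 0.0440, the latter 0.0644 with the mouse as a block). Nrf1, Gabpa and Tfam were not called in either arm.

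The diet comparison sets HFD_NonEx_NT against ND. With the high-fat diet 12 of 77 genes were lower and 0 higher (edgeR, adjusted p under 0.05), where 11.9% of all genes tested were lower, and the median log2 fold change was -0.18 against 0.0143 over all genes, with a negative sign for 72 genes and a positive one for 5. The genes were Ndufs3, Ndufs7, Ndufb5, Ndufb9 and Ndufb11 of complex I, Uqcrh and Uqcr11 of complex III, Cox7a2l of complex IV, and Atp5c1, Atp5d, Atp5o and Atp5g1 of complex V. For 24 of 77 genes the CPM ranges did not overlap with the high-fat group lower (16.3% of all genes tested), and for 1, Cox7a1, with it higher (16.8%). The sums per complex changed by -11.3% to -12.2%, with overlap in complexes I, III and IV and none in II and V.

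The number of diet calls differed between scalings and without single libraries. With total counts alone, 1 gene was higher and 0 lower, the median was 0.045 and 54 of 77 genes had a positive sign, and with upper-quartile scaling 0 were called. Total-count scaling moved the median of all genes to 0.242. Relative to the median of all genes, the subunit median was -0.20 under TMM, upper-quartile and total-count scaling. A scaling shifts all genes of a library alike, so this difference hardly depends on it and is no test of the diet change. Of all genes called with diet, 54.1% were higher under TMM, 68.8% under upper-quartile and 88.5% under total-count scaling. Without library 4 of HFD_NonEx_NT 0 genes were called and the median was -0.11, without its library 3, 5, without ND library 1, 4, and without ND library 4, 5.

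Uqcrh had the smallest p of the diet comparison. It was at 183, 174, 158 and 169 CPM in ND and at 148, 136, 141 and 123 in HFD_NonEx_NT, without overlap (-0.32 ± 0.090, adjusted p = 0.0150). Cox7a2l, which did not differ by the test in tumours, was at 49.3, 50.8, 48.5 and 52.5 CPM in ND and at 41.6, 39.1, 45.1 and 37.0 in HFD_NonEx_NT (-0.30 ± 0.086, adjusted p = 0.0153). Its groups did not overlap either. Ndufs3, a core subunit of complex I, was at 76.6, 70.6, 74.6 and 77.1 CPM in ND and at 66.9, 65.5, 64.1 and 57.6 in HFD_NonEx_NT (-0.23 ± 0.068, adjusted p = 0.0175).

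No gene of complex II passed the diet test, the smallest p being that of Sdhb (-0.23 ± 0.10, adjusted p = 0.109). Cox7a1 was at 1.57, 1.105, 0.917 and 0.700 CPM in ND and at 1.91, 1.87, 1.64 and 2.08 in HFD_NonEx_NT (0.80 ± 0.34, adjusted p = 0.0869). Of the 19 regulators, 5 were lower with the high-fat diet, where 11.9% of all genes tested were lower. Among the 5 were Nrf1 (-0.41 ± 0.11, adjusted p = 0.00985), Gabpa (-0.30 ± 0.083, adjusted p = 0.0130) and the mitochondrial mRNA-binding protein Lrpprc (-0.46 ± 0.10, adjusted p = 0.00407). Diet and tumour of non-exercised mice share the HFD_NonEx_NT libraries, so their values are given side by side and are not independent.

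In the diet comparison, where 14% of all genes tested were higher and 11.9% lower, other cell markers also differed. Macrophage markers summed to 130 to 185 CPM in ND and 233 to 307 in HFD_NonEx_NT and were higher for 8 of 9 genes, stellate and fibroblast markers summed to 198 to 284 and 308 to 577, and hepatocyte markers to 87472 to 102540 and 59553 to 87513, with 6 of 10 lower. Their part in the subunit levels was not tested.

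In non-tumour tissue 0 of 77 genes were called (0.0139% of all genes tested, edgeR), 0 had an unadjusted p under 0.05 (8.34% of all genes tested), DESeq2 also called 0, and the median log2 fold change was -0.0145. The summed level changed by -1.45%, and each complex by between -2.73% (complex IV) and 0.443% (complex II). For 2 genes, Atp5l and Atp5s, the CPM ranges did not overlap, with exercised mice higher (2.54% of all genes tested). Ppargc1a, which encodes the coactivator PGC-1alpha known to respond to exercise in muscle, was at 15.3, 20.0, 12.4 and 17.1 CPM in HFD_Ex_NT and at 7.07, 10.2, 7.94 and 10.6 in HFD_NonEx_NT. These ranges did not overlap, at 0.85 ± 0.18 with an adjusted p of 0.141.

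In tumours, 0 of 77 genes were called between exercised and non-exercised mice (0.0208% of all genes tested, edgeR), 26 had an unadjusted p under 0.05 (8.68% of all genes tested), and DESeq2 called 1, Ndufa8. The sign was positive for 75 of 77 genes, with a median log2 fold change of 0.17 against 0.0144 over all genes tested. The summed level was 13.2% higher, by 15.6% for complex I, 8.56% for II, 13.4% for III, 14.8% for IV and 9.76% for V, and the groups overlapped in each complex. With total counts alone the median was 0.0262 and 53 genes were positive. The median relative to that of all genes was 0.15 under both scalings, a difference that any scaling leaves nearly unchanged by construction. As a share of raw counts, the 77 genes took 0.776% ± 0.136 in HFD_NonEx_T and 0.782% ± 0.114 in HFD_Ex_T (SD, n = 4).

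Ndufa8, an accessory subunit held together by disulphide bonds, had the smallest p. It was at 84.2, 84.7, 83.1 and 68.5 CPM in HFD_Ex_T and at 60.5, 62.3, 65.8 and 64.8 in HFD_NonEx_T, without overlap (0.34 ± 0.081, adjusted p = 0.159). Ndufs3 was at 49.3, 53.6, 53.6 and 54.2 CPM in HFD_Ex_T and at 42.9, 43.2, 46.7 and 46.0 in HFD_NonEx_T (0.24 ± 0.068, adjusted p = 0.292). With Ndufa7 and Ndufa9 these were the 4 genes whose ranges did not overlap with exercised tumours higher (2.27% of all genes tested), and all 4 belong to complex I. In the other complexes the smallest p values were those of Sdhb (0.21 ± 0.10, adjusted p = 0.584), Uqcr10 (0.19 ± 0.087, adjusted p = 0.565), Cox5b (0.31 ± 0.11, adjusted p = 0.423) and Atp5k (0.29 ± 0.12, adjusted p = 0.501). Beside this, hepatocyte markers were positive for 10 of 10 genes (median 0.40) and macrophage markers negative for 8 of 9 (median -0.36), with 0 called in either list. The part of these shifts was not tested.

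The interaction of exercise and tumour asks whether the tumour change differed between the arms. It was called for 0 of 77 genes and for 0% of all genes tested by edgeR, and DESeq2 called 0 of the 77. Of the 77 genes, 14 had an unadjusted p under 0.05 (2.03% of all genes tested), and 76 had a positive sign, that is, a higher log2 fold change in exercised mice, with a median of 0.20 against 0.0285 over all genes. The median was 0.11 without library 1 of HFD_NonEx_NT, 0.13 without library 2 of HFD_NonEx_T and 0.13 without library 3 of HFD_Ex_T. The smallest unadjusted p was 0.0188, for Ndufs6 (0.33 ± 0.13, adjusted p = 1).

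Fold changes were also set against gene length. In the interaction, Spearman's rho between exon length and log2 fold change was -0.527 over the 77 genes and -0.189 over all 14428 genes tested. In exercise in tumours the values were -0.264 and -0.188, in exercise in non-tumour tissue 0.424 and 0.0089, in tumours of non-exercised mice -0.0225 and 0.182, in tumours of exercised mice -0.309 and 0.109, and in the diet comparison -0.114 and -0.0468. The points share the same libraries and no p is given. By role, the median in tumours with exercise was 0.12 for the 7 core genes of complex I and 0.19 for its 30 accessory genes, and in complex V 0.0918 for the F1 head and 0.23 for the small membrane subunits. Atp5a1 and Atp5b, the alpha and beta subunits, were at 0.0567 ± 0.11 and 0.0335 ± 0.13, and both turned negative with total counts alone (-0.0823 and -0.11).

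**Figure D5:**
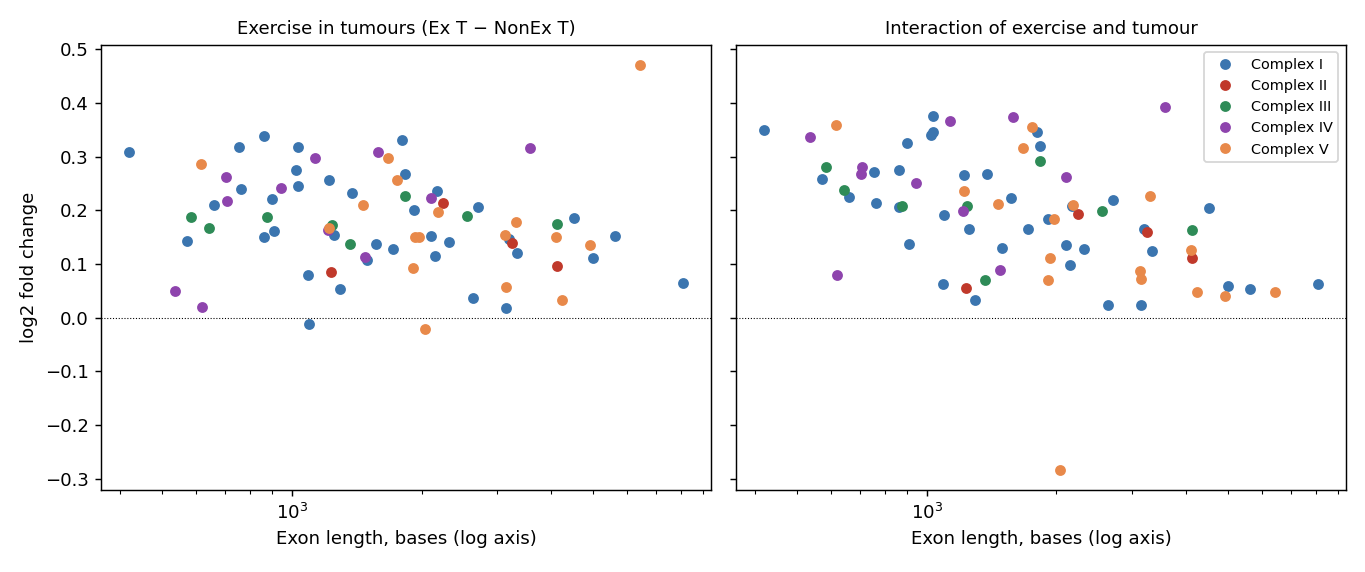
Exon length in bases (horizontal axis, log scale) against the fitted log2 fold change (vertical axis) of the 77 genes, coloured by complex, for exercise in tumours (left) and for the interaction of exercise and tumour (right). Points of short genes lie higher on the right, where Spearman's rho is -0.527.

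Over the 20 libraries, the median gene of the set had a median correlation of 0.921 (Pearson's r of log2 CPM) with the other members, a value that includes the differences between groups. Within groups, after each group mean was taken off, the median gene had a median correlation of 0.658, with 0.154 for Ndufs1 and 0.214 for Atp5b. Over the 20 libraries the 6 genes with the lowest values were Ndufa4l2 (-0.553), Cox7a1 (-0.165), Atp5s, Atp5g2, Cox7a2l and Atp5l, the same 6 that were not called in tumours. Those values include the tumour difference, so this match is built in. Within groups the order differed, with Ndufs1 and Atp5b below Cox7a2l (0.325). Outside the set, the genes most like Sdhb were Mdh1, Idh3b and Mccc2 (r = 0.996, 0.991 and 0.990 over 20 libraries), and those most like Uqcrfs1 were Isoc2a, Cyb5a and Sod2 (0.989, 0.988 and 0.986). Cox5a was nearest to Atraid, Acad8 and Sod2 (0.981, 0.981 and 0.980), Ndufs1 to Trap1, Abcd3 and Ptgr2 (0.974, 0.969 and 0.968), and Atp5b to Trap1, Abcd3 and Prkaa2 (0.976, 0.966 and 0.959). These are descriptions over libraries of 5 groups, with no test.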

How the data were processed

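RNA from 20 liver or liver tumour samples was sequenced after TruSeq Stranded mRNA library preparation, per the labels' protocols. The deposited values are raw counts of reads per gene, made by the authors with featureCounts 2.0.5, strand setting 2, on the GENCODE M27 annotation, per the file headers. Reads were trimmed with Trim Galore 0.6.10 and aligned with STAR 2.7.11a to GRCm39, per the submitters' processing notes. The headers give identifiers without symbols, so symbols came from a GENCODE M21 annotation, which named 52083 of 55359 identifiers.

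The 5 groups were fitted together with edgeR 4.0.16 (R 4.3.3), using TMM factors, quasi-likelihood tests and Benjamini-Hochberg adjustment over the 14428 genes that passed a filter on low counts (minimum count 10, minimum total 15). A call is an adjusted p under 0.05. The code was tested on simulated data in which 200 genes were changed. Of genes changed 1.25-fold, 0.5% were called for tumours of non-exercised mice and 0% for exercise in tumours. At 1.5-fold the shares were 22% and 25.5%. The changed genes were drawn from all genes, so these shares are not those of the subunit genes in particular. Alternatives were DESeq2 1.42.0, limma 3.58.1 (voom), other scalings, no filter, only the groups compared, a mouse block and leaving out each library. Same-numbered tumour and non-tumour pieces of 1 arm were taken as 1 mouse from their titles. Their deviations from the group means correlated at -0.0835, 0.0966, 0.213 and 0.052 in non-exercised and at 0.0754, 0.441, 0.373 and 0.313 in exercised mice. Same-numbered tumours of the non-exercised and exercised arms, which are different mice, correlated at 0.466, 0.115, 0.573 and 0.0281. These correlations therefore cannot decide whether pieces came from 1 mouse. Library totals were 16471378 to 20271948 counts.

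Genes described in full were, per complex, the 2 highest in level, the 2 of smallest p in a comparison, those called in few comparisons or in neither tumour comparison, and tissue isoform families. Members, lists and tests were chosen with earlier results of these data known. Cyc1 and the scaling by total counts alone were added after seeing the data.

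The values of 1 gene of complex I are not reported here, although it is included in the counts, sums and medians.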

Additional observations from a re-analysis of the deposited data

Results flagged for a closer look

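Among 155 sets of 4 libraries looked at, 5 held a library far from the other 3, where chance gives about 1 in 20. Ndufs3 was at 49.3 CPM in library 1 of HFD_Ex_T and at 53.6 to 54.2 in the others. In library 4 of that group Ndufa8 was at 68.53 CPM, against 83.1 to 84.7, and Cox6a1 at 140.8 CPM, against 178 to 181. Ndufa4 was at 354.7 CPM in library 1 of ND and at 325 to 329 in the others. Uqcrh was at 93.8 CPM in library 2 of HFD_NonEx_T and at 112 to 113 in the others.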

How the results depend on the processing

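Across the settings other than leaving out a library, 69 to 71 of 77 genes were called lower in tumours of non-exercised mice and 41 to 68 in exercised mice. With 1 library left out the counts were 66 to 71 and 43 to 61, and the medians -0.62 to -0.49 and -0.42 to -0.34. The other medians ran from -0.23 to -0.11 for diet, 0.12 to 0.20 for exercise in tumours and 0.11 to 0.24 for the interaction. Without library 4 of HFD_Ex_T, 1 gene was called higher in tumours of exercised mice. With the mouse as a replicate block 70 and 49 genes were called, and besides the values given with the results Ndufa13 had an adjusted p of 0.0528 in non-exercised mice.

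Scaling by total counts alone was chosen after seeing the data. It gave a median of 0.045 for diet, with 1 gene called, and of 0.0262 for exercise in tumours. It also turned the sign of Atp5d (0.0046) and Atp5g1 (0.031) for diet, of Cox7a2l in tumours (-0.0982 and -0.03), and of Atp5a1 (-0.0823), Atp5b (-0.1112) and Sdhc (-9e-04) for exercise in tumours. For diet, 7 genes were called by voom with the mouse block, 5 without the filter, 0 with upper-quartile scaling and 0 to 13 with 1 library left out. DESeq2 called 1 gene for exercise in tumours. Atp5b was at -0.0016 there with upper-quartile scaling. Cox7a1 in tumours of exercised mice, fitted at -0.0024, was at 0.0706 with voom and the mouse block, 0.0669 with the block in edgeR, 0.0049 with only the groups compared and 9e-04 with upper-quartile scaling. With 1 library left out it ran from -0.2368 to 0.4161, Atp5g2 in the same comparison from -0.025 to 0.2138, Cox7a2l in non-exercised mice from -0.0253 to 0.0733, and, for exercise in tumours, Atp5a1 from -0.0202 to 0.1478 and Atp5b from -0.0878 to 0.1125. The cause of these changes was not tested. At the low counts of Ndufa4l2 and Cox7a1, log2 differences of 0.76 in tumours of exercised mice and 0.80 with diet were not called.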
